A study of Mus musculus with 4 samples.

Results

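The genes described here were listed for continuous blood vessel endothelium, the tip cells of sprouting vessels and the apelin signal such cells send. They are the 10 named genes Apln, Aplnr, Esm1, Cd34, Ly6c1, Plvap, Emcn, Cav1, Cdh5 and Pecam1, taken by symbol from the 25239 genes of the deposited count files, and all 10 were found. Liver RNA came from C57BL/6 mice aged 6 to 8 weeks that were given normal saline (control) or a Gynura segetum extract (30 g/kg per day, concentrated to 2 g/mL) into the stomach for 3 weeks, with 2 libraries in each group. Gynura segetum is a medicinal plant whose pyrrolizidine alkaloids damage the lining of the hepatic sinusoids, and the design sets gene expression in treated livers against that in livers of saline-fed mice. The mice carried no labelled genetic change in either group. Whether each library came from a separate mouse is not stated in the labels, so the tests measure the spread between these libraries, which may be technical.

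The sinusoids of the liver are lined by a special endothelium with open pores and almost no basement membrane, which carries scavenger receptors and little CD34. After injury this lining can lose its pores and gain a basement membrane and proteins of continuous capillaries, a change called capillarisation. Apelin is a secreted peptide that endothelial tip cells make in sprouting vessels, and its receptor Aplnr sits on neighbouring endothelial cells. Of the genes described, Plvap also belongs to the diaphragms of endothelial pores, and Cdh5 and Pecam1 are junction proteins of endothelium in general.

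Gene counts came to between 32215268 and 49711750 per library. Levels are TMM-scaled counts-per-million values (CPM) throughout, and ± is the SD over the 2 libraries of a group. Log2 change below is the log2 fold change, extract over control, with its SE. Extract libraries lay closer together than control libraries, with a median absolute log2 difference of 0.16 against 0.26 over the 13963 genes tested, on a scale of log2(CPM + 0.5). All 10 genes had a lower CPM in control replicate 2 than in control replicate 1, a direction seen in 53.0% of the genes tested. In the same libraries the summed level of 4 T cell markers was 1.08 CPM in control replicate 2 and 11.7 CPM in control replicate 1, and that of 8 monocyte and neutrophil markers was 15.1 and 27.8 CPM. The part of other cells in the gap between the control libraries was not tested.

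After the extract, 7 of the 10 genes rose: Apln, Ly6c1, Cd34, Cav1, Emcn, Pecam1 and Cdh5. Plvap fell, Esm1 did not pass the threshold, and Aplnr had too few counts to be tested. At a Benjamini-Hochberg adjusted p under 0.05 in the edgeR quasi-likelihood fit, 4.91% of all 13963 genes tested were called higher, 3.63% lower and 8.54% either way. The median log2 fold change was 1.71 over the 9 genes of this set that were tested and -0.0047 over all genes tested. The 10 genes were chosen with earlier results of these data known, so the gap between these medians is only a description. The extract libraries lay above both control libraries for 7 of the 10 genes, which held for 27.6% of all genes tested, and below both for 1 gene, which held for 26.7% (54.4% in either direction). In whole liver, fewer cells of a type and less RNA per cell cannot be told apart.

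**Figure D1:**
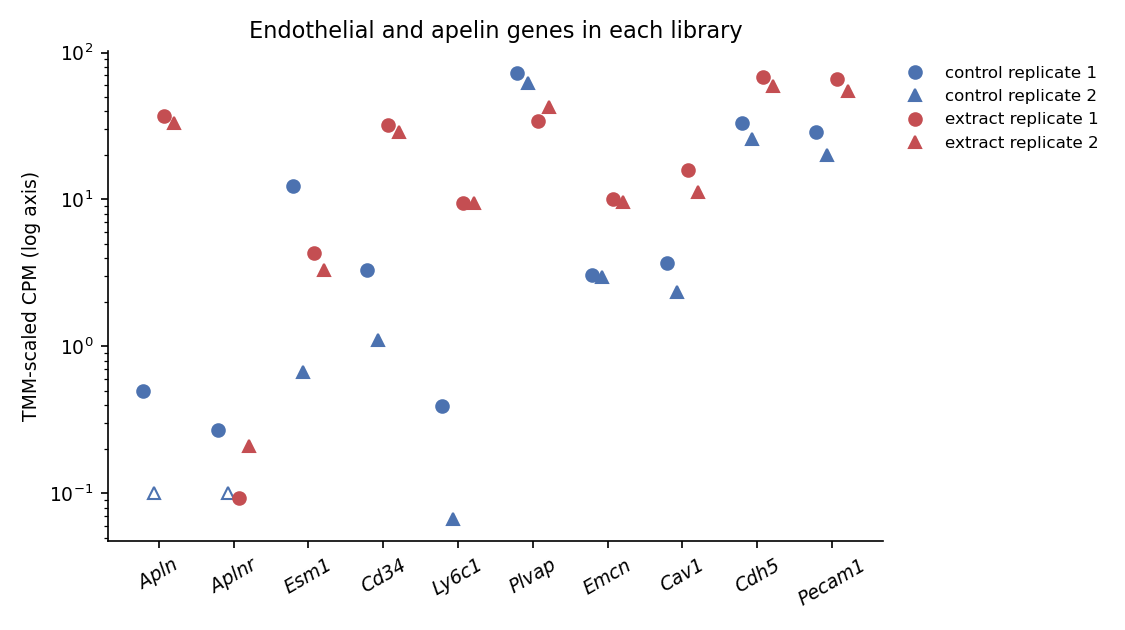
TMM-scaled CPM of the 10 genes (horizontal axis) in each of the 4 libraries on a log axis (control in blue, extract in red, replicate 1 as circles and replicate 2 as triangles). Open symbols mark a count of 0 drawn at the level of 3 counts. Apln, Cd34 and Ly6c1 show the widest gaps between the groups, Plvap lies lower after the extract, and the extract values of Esm1 lie between the control values.

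The number of calls depended on the libraries used. With control replicate 1 left out, 8 were higher and 1 lower (Esm1 joined the higher genes), and with control replicate 2 left out, 7 and 2 (Esm1 joined Plvap). With extract replicate 1 left out, 1 was higher (Ly6c1) and 0 lower, and with extract replicate 2 left out, 4 (Ly6c1, Cav1, Cdh5 and Pecam1) and 0. Those fits, in the same order, called 12.8%, 12.4%, 1.61% and 2.15% of all genes higher and 9.96%, 12.2%, 0.929% and 1.17% lower. A group with a single library left takes its spread from the remaining pair, and the control pair is the wider one.

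Sequences bear on how far 1 of these genes can be told from its neighbours. Ly6c1 has a close relative, Ly6c2, a gene used as a mark of inflammatory monocytes, and their coding sequences of 396 bases differ at 9 positions, or 97.7% identity, in the GENCODE M21 transcripts. The stretch with the most differences lies at coding bases 6 to 65 and holds 6 of them, shown in capitals.
Ly6c1: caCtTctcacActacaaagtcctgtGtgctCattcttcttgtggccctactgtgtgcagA
Ly6c2: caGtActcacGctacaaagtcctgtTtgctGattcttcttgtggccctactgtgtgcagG
The longest run without a difference is 188 bases. Of the 75-base stretches of Ly6c1 transcripts, 19.0% also occur in Ly6c2 or Ly6a, and reads from them have no unique place. For the other 9 genes the share found in another counted gene was 1.04% for Cd34, through the antisense gene Gm16897, 0.0157% for Pecam1 and 0 for the remaining 7. The read length is not given in the sources used here, so 75 bases is only an example.

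Apln, which encodes the apelin precursor, went from nearly no reads to a clearly expressed gene. It lies on chromosome X (48025146 to 48034853, minus strand, GRCm38). The counts were 24 and 0 in controls and 1588 and 1568 after the extract. On the scaled level this was 0.5003 and 0 CPM against 36.8 and 32.9 CPM. Both extract libraries were high and close together, and control replicate 1 had few reads. The count of 0 in control replicate 2 was set at 3 counts, or 0.101 CPM. Its exact Poisson 95% interval reaches 0.124 CPM. Mean levels were 0.250 ± 0.354 and 34.9 ± 2.76 CPM (SD, n = 2; log2 change 6.88, SE 0.82, edgeR adjusted p = 0.0195). The extract mean was 69.7-fold above control replicate 1, and 345-fold above control replicate 2 set at 3 counts. The adjusted p was 0.48 without extract replicate 1 (log2 change 6.83), 0.423 without extract replicate 2 (6.98) and 0.115 without a filter on low counts (6.88).

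The promoter window of Apln, the 250 bases before its start, is shown with that of Cd34, another of the genes that rose most, because ETS transcription factors such as Erg are known to drive many endothelial genes. RefSeq windows on GRCm38.p6 were given for 6 of the 10 genes (Apln, Esm1, Cd34, Ly6c1, Emcn and Cav1), and capitals mark the ETS core AGGAAG or its complement CTTCCT. The windows are chrX:48034854-48035103 (minus strand) for Apln and chr1:194938571-194938820 (plus strand) for Cd34, each written 5′ to 3′ on the strand of the gene.
Apln: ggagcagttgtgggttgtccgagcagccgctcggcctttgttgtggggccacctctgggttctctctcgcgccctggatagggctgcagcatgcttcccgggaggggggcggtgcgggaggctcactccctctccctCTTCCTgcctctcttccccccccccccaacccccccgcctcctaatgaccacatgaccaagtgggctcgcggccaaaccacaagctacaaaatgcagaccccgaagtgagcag
Cd34: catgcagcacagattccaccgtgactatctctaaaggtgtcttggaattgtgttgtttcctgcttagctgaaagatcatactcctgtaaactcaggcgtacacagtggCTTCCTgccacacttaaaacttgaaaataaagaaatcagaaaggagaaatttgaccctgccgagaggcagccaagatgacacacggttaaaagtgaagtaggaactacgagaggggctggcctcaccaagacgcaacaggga
The core was found on either strand in 4 of the 8 windows of these 6 genes (1 each of Apln, Cd34, Ly6c1 and Emcn), while 29.5% of all 32851 windows of this length hold it. The core of the hypoxia response element, ACGTG or CACGT, which overlaps the E-box, was found in 1 of the 8 windows (1 of Cav1), against 16.6% of all windows. A match of letters is a description and not a binding site.

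The receptor had few reads in every library. Aplnr, the G protein-coupled receptor of apelin on chromosome 2 (85136360 to 85139923), had 13 and 0 counts in controls and 4 and 10 after the extract. Levels were 0.271 and 0 CPM against 0.0927 and 0.210 CPM, with exact Poisson 95% intervals of 0.144 to 0.463 for control replicate 1, 0.0253 to 0.237 for extract replicate 1 and 0.101 to 0.386 for extract replicate 2, for counting error only. The groups overlapped, and a difference was not detectable at this depth.

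Other genes of the apelin pathway did not pass the threshold. Of 4 listed, 3 were tested with edgeR and 0 were called, with 1 lower at an unadjusted p under 0.05 (12.3% of all genes were higher and 11.2% lower by that measure), 1 lower by DESeq2 (7.06% and 6.25% of all genes) and 0 by limma-voom (4.88% and 3.39%). Apela, the second ligand of the receptor, had 1 count in all 4 libraries together. Mme (neprilysin), a peptidase that can cut apelin, stood at 64.4 and 48.9 CPM in control and 36.9 and 27.5 CPM in extract libraries (log2 change -0.82, SE 0.20, edgeR adjusted p = 0.0604). Mme was called lower when control replicate 1 (adjusted p = 0.00214) or control replicate 2 (6.51e-08) was left out, with upper-quartile scaling (0.0484) and with no filter on low counts (0.0146). The fitted log2 fold change of Furin, a protease that processes many precursors, was 0.02 (adjusted p = 0.954), and its sign depended on the scaling.

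Esm1 (endocan), a proteoglycan secreted by tip cells, differed more within the control group than between the groups. The gene lies on chromosome 13 (113209659 to 113218104). Counts were 597 and 20 in controls and 186 and 159 after the extract, or 12.4 and 0.673 CPM against 4.31 and 3.34 CPM. The control libraries differed 18.5-fold, and both extract libraries fell between them. The means were 6.56 ± 8.32 and 3.82 ± 0.690 CPM (SD, n = 2; log2 change -0.80, SE 1.31, edgeR adjusted p = 0.786). The direction of Esm1 rested on the control library used: it was 2.50 without control replicate 1 (adjusted p = 5.14e-06) and -1.70 without control replicate 2 (6.03e-09).

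Other tip cell genes gave no call either. Of 12 on that list, all tested with edgeR, 0 were past the threshold, with 2 higher and 2 lower at an unadjusted p under 0.05, 2 higher and 1 lower by DESeq2, and 0 by limma-voom. The median of the tip cell list was 0.14. With control replicate 1 left out the tip cell count was 5 higher and 0 lower, and with control replicate 2 left out it was 3 and 4. Angpt2, an antagonist ligand of the Tie2 receptor, showed the same order of libraries as Esm1, at 5.17 and 0.707 CPM in control and 2.78 and 2.43 CPM in extract libraries. Dll4, the Notch ligand of tip cells, stood at 9.88 and 5.32 against 3.92 and 2.77 CPM (log2 change -1.19, SE 0.37, adjusted p = 0.109). Pdgfb, which recruits pericytes, stood at 5.34 and 1.45 against 9.37 and 9.21 CPM (1.43, SE 0.57, adjusted p = 0.216). Mcam, with the smallest p of the 12, stood at 11.6 and 6.13 against 22.3 and 18.9 CPM (1.21, SE 0.31, edgeR adjusted p = 0.0662). Ramp3 stood at 0.125 and 0.0673 against 0.603 and 0.693 CPM (2.66, SE 0.78, adjusted p = 0.0915). Trp53i11 stood at 20.2 and 10.8 against 7.35 and 8.94 CPM (-0.93, SE 0.32, adjusted p = 0.139). By unadjusted p, Mcam and Ramp3 were the 2 higher genes, and Dll4 and Trp53i11 the 2 lower.

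Cd34, a sialomucin of continuous capillaries and of blood progenitors, rose 13.3-fold. It lies on chromosome 1 (194938821 to 194961292). The 4 counts were 160 and 33 in control and 1388 and 1378 in extract libraries, or 3.34 and 1.11 CPM against 32.2 and 28.9 CPM. The lower extract library was well above the higher control library, although the control libraries themselves differed 3.00-fold. Means were 2.22 ± 1.57 and 30.5 ± 2.30 CPM (log2 change 3.73, SE 0.50, edgeR adjusted p = 0.0166). The log2 fold change was 4.78 without control replicate 1 and 3.20 without control replicate 2. The call was lost without extract replicate 1 (adjusted p = 0.0935), without extract replicate 2 (0.0834) and without a filter on low counts (0.071). An antisense gene, Gm16897, shares 148 exon bases with Cd34 and had 9, 6, 20 and 25 counts in the 4 libraries, far fewer than Cd34.

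Ly6c1, a small membrane-anchored protein of mouse capillary endothelium, rose 36.7-fold. The gene lies on chromosome 15 (75044018 to 75048920). It had 19 and 2 counts in controls and 411 and 448 after the extract, or 0.396 and 0.0673 CPM against 9.53 and 9.40 CPM. The groups were far apart, and the 2 counts of control replicate 2 stand for 0.00815 to 0.243 CPM by an exact Poisson 95% interval. Means were 0.232 ± 0.232 and 9.47 ± 0.0891 CPM (log2 change 5.20, SE 0.58, edgeR adjusted p = 0.00514). Ly6c1 was called higher under all 15 alternatives, with log2 fold changes from 4.57 without control replicate 2 to 7.07 without control replicate 1. Its relative Ly6c2 did not show this difference, with 100 and 15 counts in control and 58 and 43 in extract libraries (log2 change -0.23, SE 0.71, edgeR adjusted p = 0.892). There were 0.190 and 0.133 counts of Ly6c1 for each count of Ly6c2 in controls and 7.09 and 10.4 after the extract.

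Plvap, the protein of the diaphragms that close endothelial pores and caveolae, went the other way. It lies on chromosome 8 (71497753 to 71511806). Its counts were 3479 and 1832 in control and 1481 and 2026 in extract libraries, or 72.5 and 61.7 CPM against 34.3 and 42.5 CPM. Both control libraries were above both extract libraries. Means were 67.1 ± 7.68 and 38.4 ± 5.79 CPM (log2 change -0.80, SE 0.17, edgeR adjusted p = 0.0323). Plvap was not past the threshold with total counts as the scaling (-0.64, adjusted p = 0.0708), without extract replicate 1 (-0.67, 0.299) or without extract replicate 2 (-0.99, 0.0791).

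Emcn (endomucin), a sialomucin of capillary and venous endothelium, and Cav1 (caveolin 1), the coat protein of caveolae, both rose. Emcn on chromosome 3 (137341062 to 137431069) had 146 and 88 counts in control and 434 and 457 in extract libraries, or 3.04 and 2.96 CPM against 10.1 and 9.59 CPM. Emcn showed the smallest gap between control libraries of these 10 genes, and the groups did not overlap (3.27-fold, log2 change 1.71, SE 0.23, edgeR adjusted p = 0.00808). Its call was lost without extract replicate 1 (adjusted p = 0.0811) and without extract replicate 2 (0.0621). Cav1 on chromosome 6 (17306335 to 17341328) had 177 and 70 counts in control and 682 and 534 in extract libraries, or 3.69 and 2.36 CPM against 15.8 and 11.2 CPM. Both extract libraries of Cav1 were above both controls (4.43-fold, log2 change 2.15, SE 0.31, edgeR adjusted p = 0.0102). Without extract replicate 1 its adjusted p was 0.0534.

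Cdh5 (VE-cadherin), the adhesion protein of endothelial junctions, and Pecam1, another junction protein that is also found on platelets and leukocytes, rose by smaller factors. Cdh5 on chromosome 8 (104101613 to 104144504) had 1600 and 765 counts in control and 2943 and 2829 in extract libraries, or 33.4 and 25.7 CPM against 68.2 and 59.4 CPM. This was a 2.16-fold rise with no overlap (log2 change 1.11, SE 0.17, edgeR adjusted p = 0.0132). Pecam1 on chromosome 11 (106654213 to 106715281) had 1376 and 599 counts in control and 2858 and 2615 in extract libraries, or 28.7 and 20.2 CPM against 66.3 and 54.9 CPM. Its groups did not overlap either, and the rise was 2.48-fold (log2 change 1.31, SE 0.21, edgeR adjusted p = 0.0137). Without extract replicate 1 the adjusted p was 0.0733 for Cdh5 and 0.0509 for Pecam1.

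**Figure D2:**
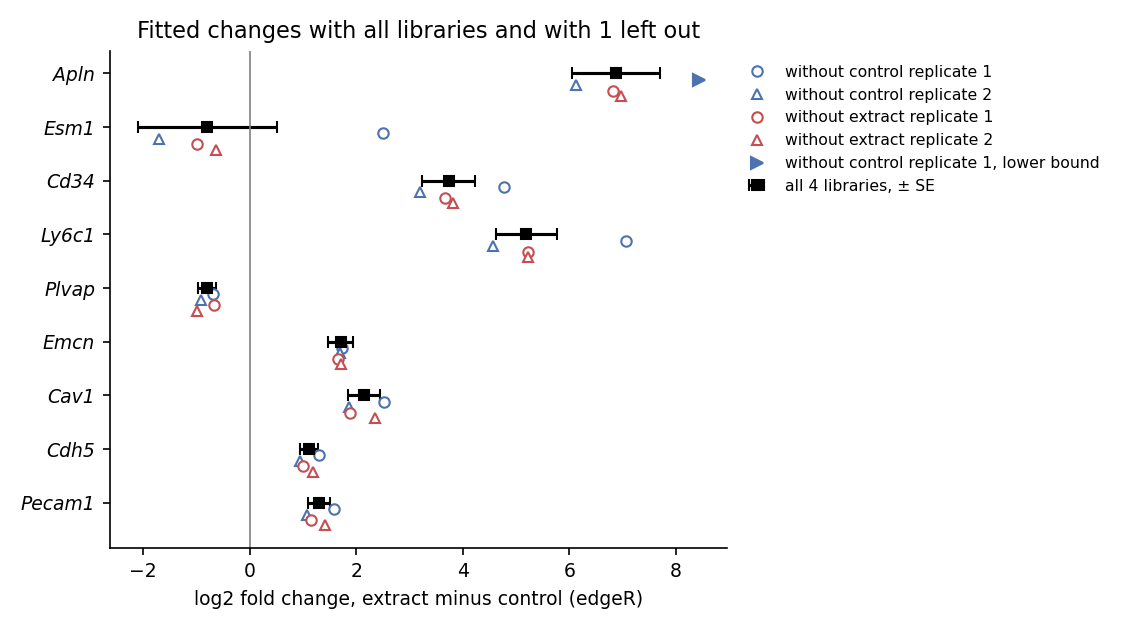
Log2 fold changes, extract minus control, of the 9 tested genes from edgeR (black squares with SE) and with 1 library left out (open symbols, blue for a control and red for an extract library). The filled arrow, labelled a lower bound, is the value of 8.43 for Apln against control replicate 2 set at 3 counts, and it depends on that setting. Esm1 changes sign with the control library left out, and the other genes keep their direction.

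Per kilobase of exon, the order of the genes changed with the extract. In control libraries Plvap stood at 36.5 and 31.0 CPM per kilobase, Cdh5 at 7.94 and 6.13, Pecam1 at 4.61 and 3.24 and Cav1 at 1.07 and 0.684. Emcn stood at 0.563 and 0.548, Cd34 at 0.458 and 0.152, Ly6c1 at 0.236 and 0.0401, Apln at 0.159 and 0, and Aplnr at 0.0733 and 0. Esm1, at 5.93 and 0.321, spanned the values of Pecam1, Cav1 and Emcn. Neighbours in this order were separated in both control libraries except around Esm1 and from Cd34 down to Aplnr, where values of one gene fell within those of the next.

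In the extract libraries Plvap (17.3 and 21.4 CPM per kilobase) and Cdh5 (16.2 and 14.1) were still the highest but lay close together. Apln (11.7 and 10.5) and Pecam1 (10.6 and 8.81) overlapped. Ly6c1 (5.68 and 5.61) stood above Cd34 (4.41 and 3.97) and Cav1 (4.59 and 3.25), which overlapped with each other. Emcn (1.86 and 1.77) and Esm1 (2.06 and 1.59) also overlapped, and Aplnr (0.0251 and 0.0567) stayed last. Apln thus moved from the low end, where it overlapped Cd34, Ly6c1 and Aplnr, to the level of Pecam1.

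Relative to Pecam1 within each library, a ratio that no scaling touches, the genes did not move in step. The log2 ratio of Apln to Pecam1 was -5.84 and -7.64 (3 counts in place of 0) in controls and -0.85 and -0.74 after the extract. For Cd34 it was -3.10 and -4.18 against -1.04 and -0.92, and for Ly6c1 -6.18 and -8.23 against -2.80 and -2.55. These 3 genes gained on Pecam1 in both extract libraries against both controls. Cav1 gained less, at -2.96 and -3.10 against -2.07 and -2.29. Emcn nearly overlapped, at -3.24 and -2.77 against -2.72 and -2.52, and Cdh5 slipped slightly, at 0.22 and 0.35 against 0.04 and 0.11. Plvap lost ground to Pecam1, at 1.34 and 1.61 against -0.95 and -0.37. These are ratios of counts and take no account of exon length. Per kilobase Plvap stayed above Pecam1 in the extract libraries, at 17.3 and 21.4 against 10.6 and 8.81 CPM. Esm1 overlapped, at -1.20 and -4.90 against -3.94 and -4.04. These ratios are given as descriptions, with no test.

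**Figure D3:**
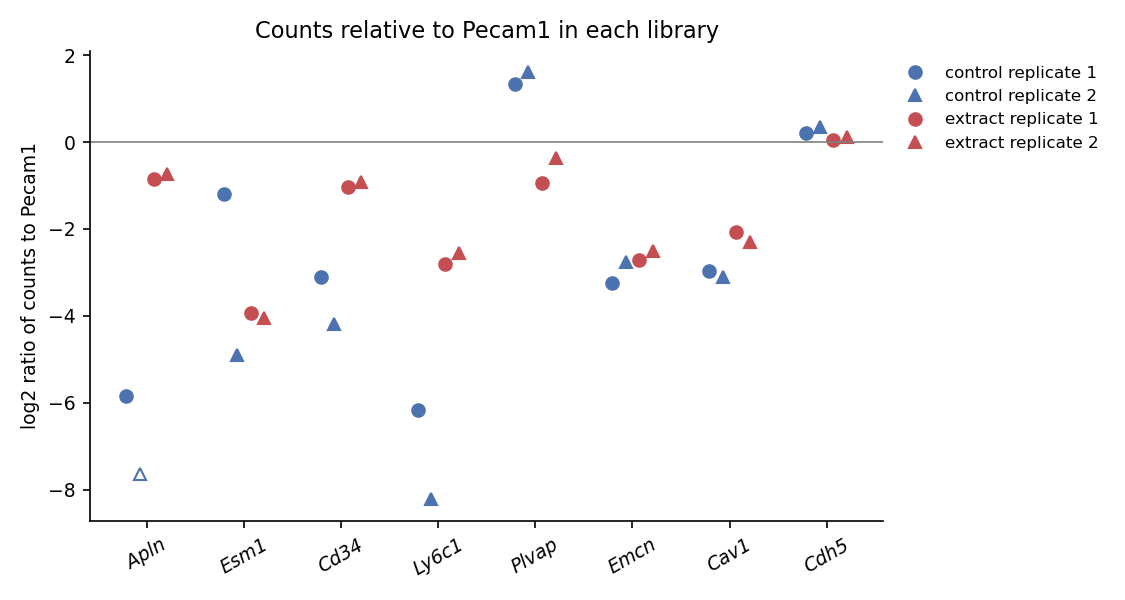
Log2 ratio of the counts of 8 genes to the counts of Pecam1 in each library (control in blue, extract in red). The open symbol marks a count of 0 entered as 3 counts, so the ratio depends on that setting. Apln, Cd34, Ly6c1 and Cav1 lie higher after the extract, Plvap and Cdh5 lower, Emcn shows almost no gap, and Esm1 overlaps.

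When the libraries were scaled to 18 genes of endothelium in general, an alternative chosen after seeing the data, the same 7 genes were called higher and Plvap lower. This scaling moved the median of all genes to -0.46 and called 3.3% of them higher (461) and 18.5% lower (2579), so a lower call such as that of Plvap is far more common on it than in the TMM-scaled fit. On that scale the log2 fold changes were 6.48 for Apln, 4.79 for Ly6c1, 3.33 for Cd34, 1.71 for Cav1, 1.26 for Emcn, 0.87 for Pecam1, 0.67 for Cdh5 and -1.25 for Plvap, with edgeR adjusted p from 0.00136 (Ly6c1) to 0.0345 (Cdh5).

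Endothelial genes in general went in both directions. Of the 18 pan-endothelial genes tested, 3 rose, 1 fell and 14 did not pass, with a median log2 fold change of 0.31. The shares over all genes were 4.91% higher and 3.63% lower. Mmrn2 (multimerin 2), an endothelial matrix protein, went from 12.4 and 9.63 to 71.9 and 61.1 CPM (log2 change 2.59, SE 0.18, edgeR adjusted p = 0.000706). Clec14a, a C-type lectin receptor that binds multimerin 2, fell from 23.5 and 19.2 to 8.07 and 6.65 CPM (-1.54, SE 0.20, adjusted p = 0.00694). Cd93, a related receptor, rose (2.39, adjusted p = 0.0258), and so did the secreted factor Egfl7 (0.90, 0.0124), although leaving out either extract library ended both calls (adjusted p from 0.0743 to 0.143). Leaving out control replicate 1 gave 8 pan-endothelial genes higher and 2 lower, leaving out control replicate 2 gave 6 and 2, and leaving out either extract library gave 1 and 1.

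On the list of capillary, arterial and venous endothelium, 1 of 14 tested genes rose and 1 fell, with a median of -0.29. Over all genes tested, 4.91% were called higher and 3.63% lower, so these counts are near the general share. Thbd (thrombomodulin), an anticoagulant receptor, went from 4.75 and 3.53 to 27.6 and 18.3 CPM (log2 change 2.46, SE 0.27, edgeR adjusted p = 0.00426). Gpihbp1, which holds lipoprotein lipase on capillaries, fell from 16.8 and 17.1 to 8.76 and 8.48 CPM (-0.98, SE 0.17, adjusted p = 0.0171), and its adjusted p was 0.144 without extract replicate 1 and 0.153 without extract replicate 2. Without control replicate 1 this list had 4 genes higher and 3 lower, and without control replicate 2 it had 2 and 2.

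Among 6 other caveola genes 1 rose, with a median of 0.51, while 4.91% of all genes were called higher. Cav2, the partner of Cav1, went from 3.86 and 4.51 to 11.4 and 10.3 CPM (log2 change 1.38, SE 0.22, edgeR adjusted p = 0.0143; 0.157 without extract replicate 1 and 0.0943 without extract replicate 2). The caveola count was 4 without control replicate 1, 2 without control replicate 2 and 0 without either extract library.

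Of 10 basement membrane genes 1 rose and 0 fell, with a median of 0.72 and 9 fitted above 0. Their summed level did not separate the groups, at 1445 and 1201 CPM in control and 1355 and 1274 CPM in extract libraries. Lama5, a laminin chain, went from 2.33 and 4.44 to 15.8 and 11.1 CPM (log2 change 2.00, SE 0.36, edgeR adjusted p = 0.0222; 0.105 without extract replicate 1). The basement membrane count was 8 and 5 with control replicate 1 and 2 left out in turn, and 0 and 1 with extract replicate 1 and 2 left out. DESeq2 called 4 of these genes higher (7.06% of all genes) and limma-voom 2 (4.88%), and 5 were higher at an unadjusted p under 0.05 (12.3%). The shares of all genes higher in the fits with a control library left out were 12.8% and 12.4%. Of 9 other junction genes, edgeR called 0, with a median of 0.01. At an unadjusted p under 0.05, 1 was higher and 1 lower, and DESeq2 called 1 lower and limma-voom 0. How much of their level in whole liver came from endothelium was not tested. With control replicate 1 left out, 2 of these junction genes were higher and 1 lower, and with control replicate 2 left out 1 was lower.

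The markers of sinusoidal endothelium lay on the other side. Of 14 tested, 10 fell, 0 rose and 4 did not pass, while 3.63% of all genes were called lower. The list median was -1.30, and 3 of the 14 were fitted above 0. That median was -1.18 without control replicate 1 and -1.27 without control replicate 2. Lyve1, also on this list, did not fall, and both of its extract libraries were above both control libraries. Mrc1, the mannose receptor, went from 50.2 and 46.2 to 10.2 and 10.1 CPM (log2 change -2.25, SE 0.14, edgeR adjusted p = 0.000542), the hyaluronan receptor Stab2 from 51.3 and 64.3 to 13.1 and 15.5 CPM (-2.01, SE 0.18, 0.00162), and the endothelial receptor Gpr182 from 32.1 and 30.4 to 7.72 and 9.34 CPM (-1.87, SE 0.17, 0.00179). There were 15.4 and 57.8 counts of Stab2 for each count of Cd34 in control libraries and 0.406 and 0.536 in extract libraries. Leaving out extract replicate 1 left 5 of the sinusoidal genes lower, and leaving out extract replicate 2 left 8.

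**Figure D4:**
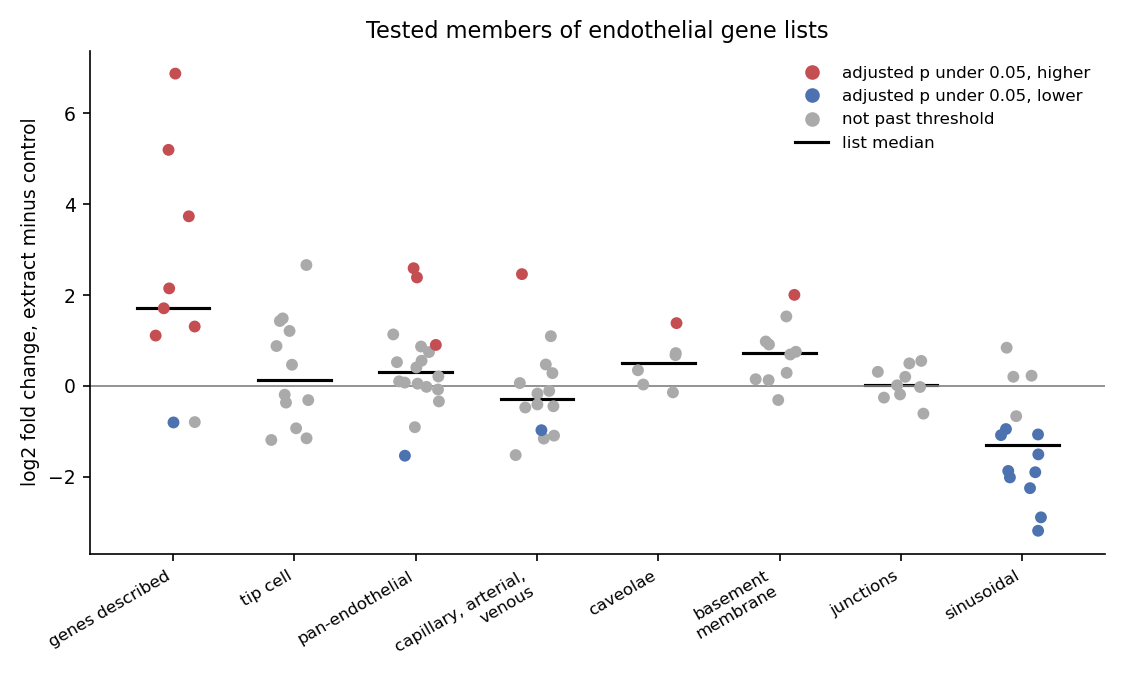
Log2 fold changes, extract minus control (vertical axis), of the tested members of each gene list (points), with the list median as a bar. Red and blue points passed an adjusted p of 0.05 and grey points did not. The genes described have a median of 1.71, the sinusoidal list one of -1.30, and the tip cell list holds 0 called genes. The genes and lists were chosen with earlier results of these data known.

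Several of the 10 genes are also made by other cells, so markers of those cells were read in the same libraries. Megakaryocytes and blood progenitors can carry Cd34 and Pecam1. CPM summed over their 6 markers lay between 11.6 and 13.3 in all 4 libraries, with both controls inside that range. Of these markers edgeR called 0 of 5 tested (0 at an unadjusted p under 0.05, by DESeq2 and by limma-voom). The median log2 fold change of these 5 was 0.12, and it ranged from -0.34 to 0.37 with 1 library left out. The absence of calls did not hold in every fit with 1 library left out. The 8 monocyte and neutrophil markers ranged from 15.1 to 27.8 against 18.7 to 22.4 CPM, with 0 of 8 called (0 at an unadjusted p under 0.05 and by both other tools). Their direction rested on the control library used, with 3 higher and a median of 1.36 when control replicate 1 was left out, and 2 lower and a median of -0.80 when control replicate 2 was left out. The 4 T cell markers found ranged from 1.08 to 11.7 CPM in control and from 0.533 to 1.41 CPM in extract libraries, with 0 of 3 called by edgeR, 1 lower at an unadjusted p under 0.05, 1 lower by DESeq2 and 0 by limma-voom. With control replicate 2 left out 4 of 4 T cell markers were lower (median -3.62), and with control replicate 1 left out 0 were called (median 0.03).

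Portal fibroblast markers, 7 genes, ranged from 16.9 to 21.4 against 9.23 to 24.0 CPM. Of 5 tested, 0 were called (0 at an unadjusted p under 0.05 and by both other tools). The median log2 fold change of those tested was -0.06, and it ranged from -1.79 to 0.37 with 1 library left out. Not all of those fits were without a call. The 5 smooth muscle markers ranged from 18.8 to 39.2 against 31.1 to 65.4 CPM with 0 of 5 called by edgeR and limma-voom, and 1 higher at an unadjusted p under 0.05, by DESeq2 and without extract replicate 2. All 5 smooth muscle markers were fitted above 0 (median 0.82). Of 5 adipocyte markers Lep was at 0 in every library and Adipoq had at most 1 count. The summed levels of the 5 were 1.46 to 1.99 against 3.13 to 3.52 CPM. Of 1 tested, 0 were called (0 at an unadjusted p under 0.05 and by both other tools). The log2 fold change of that gene was 0.85. With 1 library left out, 1 or 2 adipocyte genes were tested, with medians from 0.86 to 4.08. Not every such fit was without a call. The lymphatic marker Ccl21a was at 0 in every library, and the lymphatic sum of 196 to 221 against 206 to 245 CPM came mostly from Prox1 and Reln, which hepatocytes and stellate cells also make. Its 4 tested genes gave 0 calls, with 1 higher and 1 lower at an unadjusted p under 0.05, 1 lower by DESeq2 and 0 by limma-voom. Mesothelial markers, 4 genes, ranged from 5.15 to 9.13 against 2.85 to 5.10 CPM. Of these 4, 0 were called by edgeR and limma-voom, 2 were lower at an unadjusted p under 0.05 and 1 by DESeq2. Their median log2 fold change was -0.93, and it ranged from -1.48 to -0.51 with 1 library left out. Those fits were not all without a lower call. The 4 cholangiocyte markers ranged from 10.6 to 11.3 against 7.39 to 13.5 CPM with 1 lower (Sox9) and 3 fitted above 0 (median 0.73, 1 higher at an unadjusted p under 0.05 and by DESeq2). Without control replicate 2 there were 2 cholangiocyte markers higher and 1 lower, and without either extract library 0 were called. The 4 hepatocyte markers, the check of the tissue, summed to 124980 and 129862 CPM in control and 84027 and 89139 CPM in extract libraries. Of these 4, 1 was lower (Apoa1), with a median of -0.55, 2 lower at an unadjusted p under 0.05 and by DESeq2, and 0 called without either extract library. The part of any of these cells in the changes of the 10 genes was not tested.

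**Figure D5:**
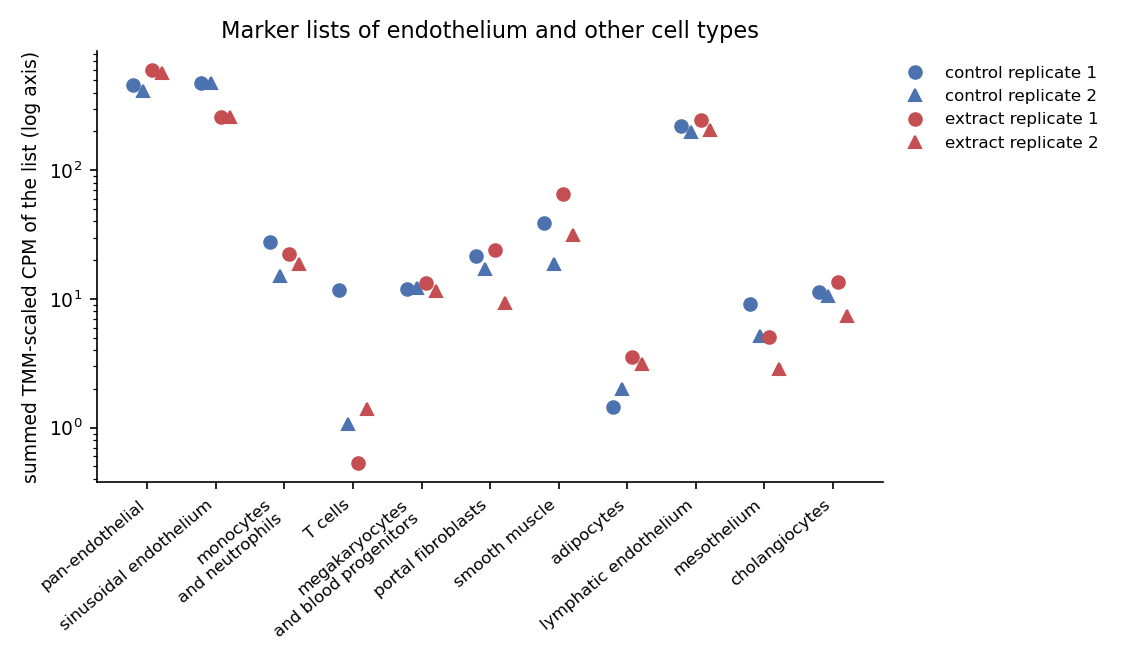
Summed TMM-scaled CPM of each marker list (horizontal axis) in each of the 4 libraries on a log axis (control in blue, extract in red, replicate 1 as circles and replicate 2 as triangles). The sinusoidal list is lower in both extract libraries, the pan-endothelial list is higher, and T cell markers are high in control replicate 1.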

How the data were processed

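Liver RNA was sequenced in 2 control and 2 extract libraries, grouped by sample title. Per the submitters' processing notes, CASAVA 1.8, HISAT2 2.1.0, HTSeq and the mm10 build were used, with no role or order given. No annotation, strand setting or read length is given in the labels or notes. Each deposited file gives the authors' raw counts, with a row for each gene symbol. The 5 closing rows that name no gene took 16.5% to 22.0% of all records in a library, 5.18% to 9.03% as alignments with no unique place, and stayed out of library sizes and tests. Without a known strand setting, reads of a gene and its antisense partner cannot be told apart.

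The test was that of edgeR 4.0.16 under R 4.3.3 (filterByExpr, TMM, robust quasi-likelihood fit, 2-sided, Benjamini-Hochberg over 13963 genes, threshold 0.05). The SE is the log2 fold change over the square root of F. Alternatives used limma 3.58.1 and DESeq2 1.42.0, other scalings and filters, and left-out libraries. The members and gene lists (148 of 149 distinct list genes found) were chosen with earlier results of these data known. All 10 members are named, and from each list up to 3 called genes a direction with the smallest p and a mean of at least 1 CPM. Some further genes that did not pass were named after their values were seen (Angpt2, Dll4, Pdgfb, Mcam, Ramp3, Trp53i11, Mme, Furin, Apela, Ly6a, Lyve1). So were the called markers Sox9 and Apoa1. Positions and promoters are RefSeq's on GRCm38.p6, the assembly of mm10, and exon lengths GENCODE M21's. On simulated counts for 13963 genes the edgeR step recovered 84% of 50 genes changed 8-fold and 70% of 50 changed 4-fold. It recovered 28% of 50 changed 2-fold and 4% of 50 changed 1.5-fold, and called 17 unchanged genes. Changes of 1.5-fold to 2-fold would thus mostly go uncalled.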

Additional observations from a re-analysis of the deposited data

How the results depend on the processing

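Over 15 alternatives, Ly6c1 kept its direction and its call in all, while Apln, Cd34, Plvap, Emcn, Cav1, Cdh5 and Pecam1 kept their direction and lost the call in 4, 3, 3, 2, 1, 1 and 1 of them. The log2 fold change of Esm1 was 0.11 with the replicate block and ranged from -1.70 to 2.50 with 1 library left out. With 1 library left out, between 233 and 1826 genes were called higher and between 134 and 1782 lower, and of the 10 genes 1 to 8 higher and 0 to 2 lower, since each fit takes the spread from the pair that remains. DESeq2 called 909 genes lower (edgeR 507). Total-count scaling moved the median of all genes to 0.16, the share of calls that were higher from 57.5% to 73.6% (940 higher and 338 lower against 686 and 507), and the genes of this set called lower to 0. With the replicate number as a block, 902 genes were higher and 682 lower, and 6 of the 10 genes rose, as Apln had an adjusted p of 0.0665; Mme was then lower (0.00964) and 3 of 5 smooth muscle markers higher. The labels tie no pair of libraries together, and the deviations of same-numbered libraries correlated at 0.22 across genes.

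Against the summed pan-endothelial list in place of Pecam1, the change in log2 ratio was 3.57 for Cd34, -1.23 for Plvap, 1.29 for Emcn, 0.70 for Cdh5 and 1.75 for Cav1 (2.66, -2.13, 0.38, -0.21 and 0.85 against Pecam1). Cdh5 thus fell slightly against Pecam1 and gained against the list. Without scaling beyond total counts, Ly6c1 in extract libraries stood at 5.98 CPM per kilobase, and Emcn at 0.524 in control and 1.93 in extract libraries. Levels below about 3 counts, 0.0625 to 0.101 CPM, are at the limit of detection, which holds for Apln, Aplnr and Ly6c1 in control replicate 2.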

Other observations

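Among 9 relatives of Ly6c1 on a list of Ly6 genes, 5 were tested and Ly6d, a surface protein best known from epithelium and lymphoid precursors, was called higher. Ly6d had 28 and 16 counts in control and 1087 and 984 in extract libraries, or 0.584 and 0.539 CPM against 25.2 and 20.7 CPM (log2 change 5.34, SE 0.24, edgeR adjusted p = 0.000229), and it passed the threshold with each of the 4 libraries left out. Ly6a, a capillary and progenitor marker of the same family that was on the capillary list, stood at 21.2 and 12.8 against 23.1 and 24.1 CPM (0.47, SE 0.24, adjusted p = 0.313). Ly6h and Ly6g6c were at 0 in every library.

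There were 21.7 and 55.5 counts of Plvap for each count of Cd34 in controls and 1.07 and 1.47 after the extract. The hyaluronan receptor Lyve1, shared by sinusoidal and lymphatic endothelium, was on the sinusoidal list but did not fall. It stood at 47.7 and 10.5 CPM in control and 54.9 and 50.1 CPM in extract libraries. Its control libraries were thus apart in the same order as those of Esm1 and Angpt2.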
